A study of Homo sapiens with 9 samples.

Results

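The genes of the DNA replication machinery were examined for contacts of the splicing factor SF3B1 with their RNA in K562 cells. The list comprised 43 genes, from origin recognition to the joining of Okazaki fragments. A binding site belonged to a gene when its centre lay inside the RefSeq span of that gene and on its strand. This gave 830 of the 96852 listed sites, which is 0.857% of the list, in 41 of the 43 genes. The rule names the genes and uses no site count, but the genes were chosen with earlier results of these data known. Shares of these genes are therefore descriptions and not free of selection. The roles used below are the textbook functions of the genes.

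The cells were K562, an established human leukaemia line. SF3B1 was mapped by iCLIP, in which ultraviolet light (254 nm, 400 mJ/cm2) crosslinks a protein to RNA and sequencing of the precipitated RNA marks the crosslinked nucleotides. The site list is attached by the labels to 3 SF3B1 samples of genotype SF3B1 wt/wt (replicates 2, 3 and 4, provider Horizon Discovery, HD PAR-131), precipitated with a monoclonal SF3B1 antibody (clone 16). The other 6 samples of the series, 2 of genotype SF3B1 K700E/wt and 4 for U2AF2 in SF3B1 wt/wt cells, were not analysed here.

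The list holds positions of 5 nt sites and no value per replicate. No spread between replicates and no test between samples can therefore be given, and the depth of the libraries is unknown. Its header describes the sites as reproducible by all replicates of either condition, so single sites are not assigned to a genotype. The labels name the tissue as derived from chronic lymphoid leukaemia, whereas K562 is known as a myeloid line with erythroid features. Of 12 myeloid and erythroid marker genes 6 held a site, led by TFRC with 121 sites and TAL1 with 17, and of 8 B-lymphoid marker genes 0 held one. The globin genes HBG1, HBG2, HBZ and HBE1 and the erythroid transcription factor gene KLF1 had 0 sites.

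DNA replication starts at origins that are bound by the origin recognition complex (ORC). CDC6 and CDT1 then load the ring-shaped MCM2-7 helicase, and CDC45 and the GINS complex activate it to the CMG helicase that unwinds the fork. Polymerase α with primase lays down primers, polymerases ε and δ extend them on the clamp PCNA, and FEN1, DNA2 and LIG1 finish the Okazaki fragments. Many of these genes are transcribed in a cell-cycle-dependent way by E2F factors, and nearly all of their transcripts contain introns. SF3B1 belongs to the U2 snRNP, the particle that binds the branch point of an intron, so its crosslinks mark RNA that the splicing machinery engages.

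Replication genes carried many SF3B1 sites. Sites were present in 41 of 43 genes (95.3%), and among all 20056 protein-coding genes the share was 37.9%. At least 10 sites were found in 30 of the 43 genes, against a background of 14.8%, and at least 20 sites in 22 genes, against 7.2%. The median was 20 sites per gene with quartiles of 8.5 and 26, and it was 7 over protein-coding genes with a site. Restriction to genes of 10 to 100 kb gave 35 of 36 replication genes with a site and 27 with at least 10 sites, beside backgrounds of 46.1% and 18.7%. No RNA level was measured here, so a gene with few sites cannot be told apart from a gene whose RNA was rare.

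Per length the members also stood above the middle of the list. Median density was 0.402 sites per kb (quartiles 0.201 and 0.889) over the 41 genes and 0.199 (quartiles 0.0706 and 0.510) over all protein-coding genes with a site. Of the 43 members, 2 of which had no site, 31 exceeded this second median. By definition, as many of the 7608 protein-coding genes with a site lie above that median as below it. The members differed widely among themselves: MCM7 had 3.00 sites per kb and PRIM2 0.0094, a 319-fold range. Gene length ordered the counts only loosely, with a Spearman's rho of 0.18 across the 43 genes and of 0.23 across all genes with a site; both are descriptions across genes, which share the same libraries.

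**Figure D1:**
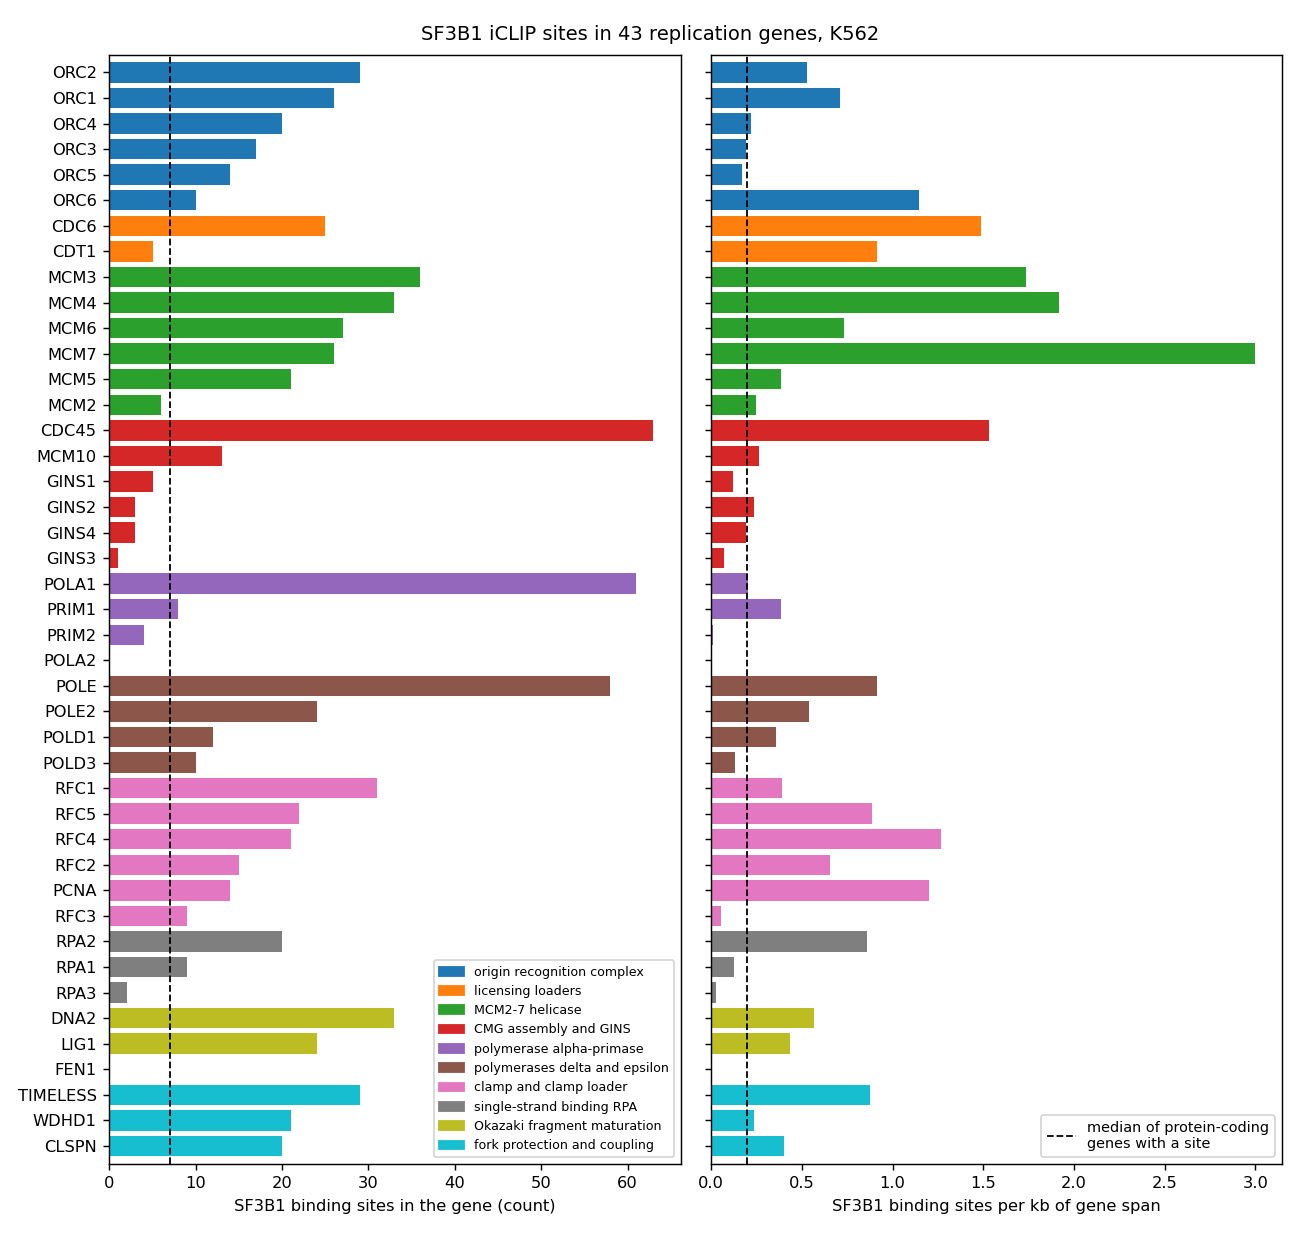
Number of SF3B1 sites (left, count) and sites per kb of RefSeq gene span (right) in each of the 43 genes, coloured by role; dashed lines mark the medians of protein-coding genes with a site, 7 sites and 0.199 sites per kb. CDC45, POLA1 and POLE have the longest bars on the left, MCM7 and MCM4 on the right, and POLA2 and FEN1 have none.

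All 6 genes of the origin recognition complex, the ATP-dependent assembly that marks origins, had at least 10 sites. ORC2 had the most, 29 sites on the minus strand of chr2:200908977-200963660, or 0.530 per kb. ORC1, the subunit whose protein level is known to change through the cell cycle, had 26 sites (0.709 per kb), ORC4 had 20, ORC3 had 17 and ORC5 had 14. ORC6 had the fewest, 10 sites, but its gene spans only 8.74 kb (chr16:46689659-46698394, plus strand), which made it the densest of the 6 at 1.14 sites per kb. The order of the subunits by count was thus not their order by density.

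One ORC2 site fell inside a stretch whose sequence was given, the start window of the antisense gene LOC105373835, and it is shown because it lets a reader see the bases under a site. The site lies 207 nt downstream of the RefSeq start of ORC2. The 29 bases of the ORC2 strand at chr2:200963439-200963467 (RefSeq, GRCh38.p14) follow, with the 5 nt site in capitals.
ORC2 site: agcctgcctcccTTTTCtgcttagctcgc
The site itself holds 4 T and 1 C, and 22 of the 29 bases are pyrimidines. Across the whole list 398 sites lay far enough inside RefSeq start windows to be read in this way, and 57.7% of their bases were T and 22.5% C, against 31.9% T and 25.9% C in the 12 nt on each side of them and 21.3% T and 28.3% C over all start windows. In 164 of these 398 sites (41.2%) all 5 bases were pyrimidines, as in ORC2. Start windows are rich in C and G and hold few sites, so these values describe a small and particular share of the list.

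The helicase loaders differed. CDC6, the ATPase that acts with ORC to load the MCM ring onto DNA, had 25 sites on the plus strand of chr17:40287879-40304657, or 1.49 per kb. CDT1, which escorts the helicase to the origin, had 5 sites in 5.47 kb, or 0.914 per kb. By density CDC6 lay above 93.2% and CDT1 above 86.7% of the protein-coding genes with a site.

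The MCM2-7 helicase held 149 sites in its 6 genes, the largest sum among the 10 roles of the 43 genes. Roles hold 2 to 6 genes each, so their sums are not like for like. Polymerases δ and ε held 104 sites in 4 genes, with a median of 18 per gene beside 26.5 in MCM2-7. MCM3 had 36 sites (chr6:52264015-52284742, minus strand), MCM4 had 33 (chr8:47960941-47978160, plus strand), MCM6 had 27, MCM7 had 26 and MCM5 had 21. MCM2 had 6 sites, the fewest, although its span of 24.0 kb (chr3:127598411-127622436) exceeds that of MCM3 (20.7 kb), MCM4 (17.2 kb) and MCM7 (8.67 kb). The 6 proteins form one ring in equal numbers, while the counts of sites in their genes ran from 6 to 36.

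Per length, MCM7, MCM4 and MCM3 were the 3 densest of all 43 genes, with 3.00, 1.92 and 1.74 sites per kb. They were followed by CDC45 with 1.53 and CDC6 with 1.49. MCM7 lay above 98.3% of the protein-coding genes with a site. MCM6 had 0.733 sites per kb, MCM5 0.383 and MCM2 0.250. The RefSeq span of MCM5 (chr22:35400140-35455031) extends beyond its last site, which lay at 41.9% of the span, and the density is taken over the whole span.

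MCM7 is also the host gene of the miRNAs MIR106B, MIR93 and MIR25, which lie in this order along its RNA near the 3′ end (minus strand of chr7:100092728-100101397). The mature arms that are usually the functional ones are given because 2 of their hairpins have an SF3B1 site shortly before them; they are the RefSeq sequences of GRCh38.p14, with the seed, bases 2 to 8, in capitals.
hsa-miR-106b-5p: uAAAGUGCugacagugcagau
hsa-miR-93-5p: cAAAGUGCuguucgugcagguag
hsa-miR-25-3p: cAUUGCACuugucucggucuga
The first and second share the seed AAAGUGC, and the third has the seed AUUGCAC. No SF3B1 site fell inside any of the 3 hairpins. One site, centred at 100094140, lay 66 nt upstream of the MIR106B hairpin (chr7:100093993-100094074). The last site of the gene, centred at 100093874, lay between the hairpins, 27 nt upstream of that of MIR93 (chr7:100093768-100093847). MIR25 (chr7:100093560-100093643) had no site within 100 nt on either side, and no site followed it.

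Of the 3 hairpins 2 thus had a site within 100 nt upstream. Among 531 hairpins that lie on the strand of a protein-coding gene with a site, 34 had such a site, a background of 6.4%, and 39 (7.34%) had a site inside. The MCM7 hairpins share one gene and are not independent. The background covers host genes of any site density, whereas MCM7, with 3.00 sites per kb, lay above 98.3% of protein-coding genes with a site. The shares are thus not like for like, and a link between sites and hairpins was not tested. The other miRNA gene inside a member, MIR548U in PRIM2, had no site inside it or within 100 nt.

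**Figure D2:**
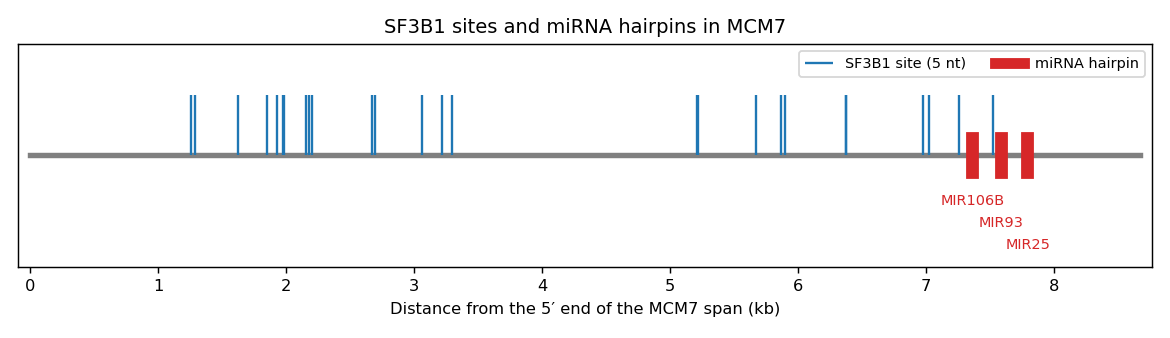
Map of MCM7 drawn to scale from the 5′ end of its 8.67 kb span (axis in kb); blue lines are the 26 SF3B1 sites and red boxes the MIR106B, MIR93 and MIR25 hairpins. One site stands 66 nt before the MIR106B hairpin and one 27 nt before the MIR93 hairpin, and none lies inside a hairpin or after MIR25.

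The activators of the helicase differed in their counts. CDC45, the factor that joins MCM2-7 and GINS in the active helicase, had 63 sites, the most of all 43 genes (chr22:19479466-19520612, plus strand). It had more sites than 99.2% of protein-coding genes. MCM10, which acts with the helicase at origin firing, had 13 sites (0.262 per kb). The 4 genes of GINS, the other partner in that helicase, were all low: GINS1 had 5 sites, GINS2 and GINS4 had 3 each, and GINS3 had 1. Their spans run from 12.8 kb in GINS2 to 40.9 kb in GINS1, and CDC45 with 41.1 kb is about as long as GINS1.

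The genes of polymerase α-primase, the enzyme that makes the primers, were uneven. POLA1, the catalytic polymerase subunit, had 61 sites on the plus strand of chrX:24693918-24996986, the second highest count. POLA2, the accessory subunit, had 0 sites on either strand of its span (chr11:65261962-65305985). PRIM1, the catalytic primase subunit, had 8 sites and PRIM2, the large primase subunit, had 4 in 425 kb. Per length PRIM1 (0.386 per kb) was denser than POLA1 (0.201 per kb), whose gene is 303 kb long. RefSeq lists a pseudogene named PRIM2BP on the same chromosome, and reads that fit both copies can be lost or misplaced, so the PRIM2 count is uncertain.

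Of the replicative polymerases, POLE, the catalytic subunit of polymerase ε, had 58 sites (chr12:132623762-132687342, minus strand; 0.912 per kb). Its second subunit POLE2 had 24 sites (0.537 per kb). POLD1, the catalytic subunit of polymerase δ, had 12 sites (0.356 per kb), and its accessory subunit POLD3 had 10 (0.130 per kb). By count, the catalytic subunit of each of the polymerases α, δ and ε thus had more sites than the accessory subunits listed here. The margin was narrow for polymerase δ. Per length the order did not hold for every accessory subunit. Among those counted with the further genes below, POLD2 had 0.933 sites per kb, above POLD1, and POLE3 had 1.99, above POLE. POLA2, POLD3 and POLE2 were less dense than their catalytic subunits, and POLD4 and POLE4 had 0 sites.

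The clamp PCNA, the ring that tethers polymerases to DNA, had 14 sites in 11.7 kb (chr20:5114953-5126622, minus strand), or 1.20 per kb. Among the subunits of its loader, replication factor C, RFC1 had 31 sites, RFC5 had 22, RFC4 had 21, RFC2 had 15 and RFC3 had 9. RFC4 was the densest with 1.27 sites per kb, and RFC3 the sparsest with 0.0565, its span being 159 kb. RPA, which coats single-stranded DNA, had 20 sites in RPA2, 9 in RPA1 and 2 in RPA3.

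FEN1, the flap nuclease that trims Okazaki fragments, had 0 sites. Its gene (chr11:61792911-61797238) is the shortest of the 43, with 4.33 kb, and is known for a coding sequence without introns. DNA2, the nuclease-helicase that removes long flaps, had 33 sites (0.565 per kb), and LIG1, the ligase that seals the nicks, had 24 (0.437 per kb). The fork factors TIMELESS, WDHD1 and CLSPN had 29, 21 and 20 sites. TIMELESS, which couples polymerase to helicase, was the densest of these at 0.877 per kb.

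Few sites lay on the strand opposite to a member. In 36 members the strand was taken from RefSeq start windows. In the other 7 (MCM4, MCM5, GINS4, POLD3, RPA2, RPA3 and DNA2) it was taken from the sites, all of which lay on 1 strand. The spans of the 43 genes held 12 sites on the opposite strand, in 4 genes. ORC1 had 6 of them, inside PRPF38A, ORC3 had 3, inside AKIRIN2, RFC5 had 2, inside WSB2, and ORC4 had 1, inside MBD5. Each of these is a protein-coding gene annotated on the other strand at that place. No member-strand site lay in a second protein-coding gene. Some lay inside the span of a lncRNA gene: 6 of the 9 RPA1 sites in LOC105371755, all 3 GINS4 sites in GPAT4-AS1, 3 LIG1 sites in LIG1-AS1, 2 CLSPN sites in CLSPN-AS1 and the ORC2 site shown above in LOC105373835. The GINS4 strand was taken from those 3 sites, so they cannot be assigned to GINS4 rather than to GPAT4-AS1. RefSeq also lists 14 pseudogenes named after 8 of the members, and they held 0 sites.

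Sites began downstream of the transcription start. The RefSeq start windows (250 bases before to 50 bases after a start) of 36 members, 44 windows in all, held 0 sites, which allows a share of up to 6.82%; the background over protein-coding genes was 0.797%. Measured from the innermost start listed for a gene, all 708 sites of the 34 such members with a site lay downstream. Over all protein-coding genes with 5 sites or more the share upstream was also small, 1.88%. Sites were counted only inside the span, so none could lie upstream in members whose innermost listed start is the limit of the span. Only in ORC1, ORC4, PRIM2, MCM7, POLD1, PCNA and CDC45 could a site have lain upstream. The first site followed the innermost start at a median of 5319 nt. The distance ran from 195 nt in CDC45, 207 nt in ORC2 and 384 nt in MCM7 to 62028 nt in ORC4. For members with at least 5 sites the median was 4167 nt, and for all protein-coding genes with at least 5 sites it was 6888 nt.

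Along the gene the members followed different patterns. In CDC45 the sites crowded towards the 3′ end, with the median site at 86.2% of the span and 19 of 63 sites in the last 10%. A window of 1 kb there held 11 sites, with centres from 19514696 to 19515673, and 9.95 kb earlier in the gene had none between 19484325 and 19494279. POLA1 had the opposite arrangement: 59 of its 61 sites lay before the midpoint of the span, 20 of them in the first 10%, and a stretch of 107.8 kb, from 24887956 to 24995754, held none before a single last site. POLE likewise had 54 of 58 sites in the first part of the gene, before its midpoint, with 11 of them in 1 kb between centres 132676060 and 132676994.

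Other members had all sites at one side. In MCM5 all 21 sites and in RFC3 all 9 lay before the midpoint of the span, the latter within the first 12.1% of the span. In ORC4 all 20, in PCNA all 14 and in POLD1 all 12 sites lay after the midpoint of the span, and in RFC1 30 of 31. MCM3 had 18 sites before and 18 after its midpoint. For PCNA and POLD1 RefSeq lists a second, inner start, at 5119958 on chromosome 20 and 50398852 on chromosome 19, and all their sites lay downstream of it.

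**Figure D3:**
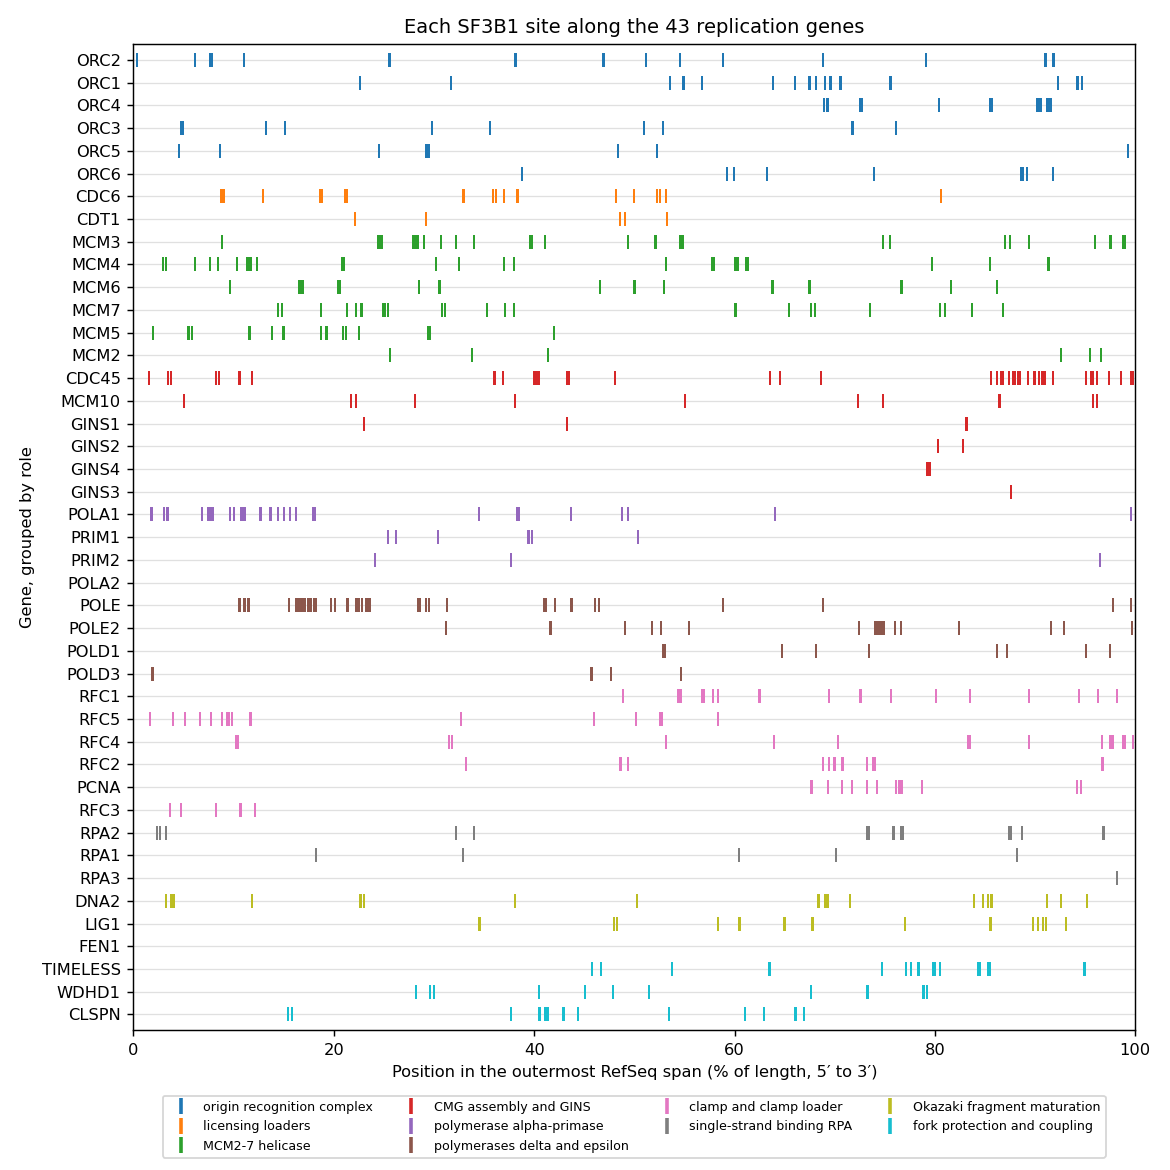
Each tick is 1 SF3B1 site at its relative position in the outermost RefSeq span of the gene (x axis, % of length from 5′ to 3′), with 1 row per gene coloured by role. POLA1, POLE, MCM5 and RFC3 have their ticks mainly on the left, and CDC45, ORC4, PCNA, POLD1 and RFC1 mainly on the right; POLA2 and FEN1 have no ticks.

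Summed over the members, sites were somewhat more numerous at the 3′ than at the 5′ end of the span. The last 10% of the span held 103 sites and the first 10% held 81, over the 36 members with 5 sites or more, a ratio of 1.27 (95% Wilson-based interval 0.951 to 1.70, counting error only). Over all protein-coding genes with at least 5 sites the same ratio was 2.99. The last 10% held more sites in 18 of the 36 members, against a background of 49.9%, and the first 10% held more in 10, against 16.0%. More sites lay before than after the midpoint in 17 of the 36 members, beside 30.7% of all such genes. POLA1 alone gave 20 of the 81 sites in the first 10%, and without it the ratio was 1.67. In members of 10 to 100 kb it was 1.74 (101 against 58 sites), above the interval given, beside 2.85 in all protein-coding genes of that length. The omission of POLA1 and the length limit were chosen after seeing the data. Among the planned settings, the ratio was 1.14 without CDC45 (84 against 74 sites). It was 1.02 with 20% at each end (179 against 176) and 1.425 with 5% at each end (57 against 40). Whether the members differ from other genes in this respect was not tested, since the list has no replicates and genes are not samples.

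**Figure D4:**
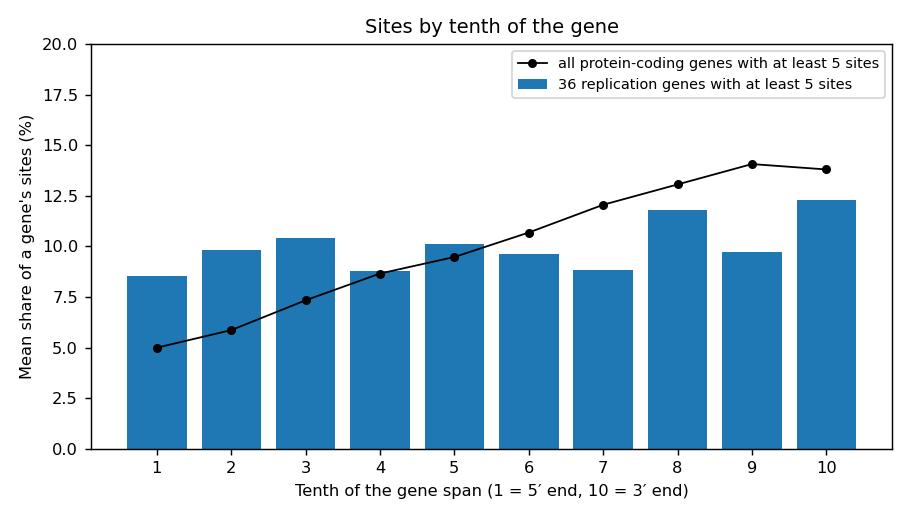
Mean share of a gene's SF3B1 sites (y axis, %) in 10 equal parts of the gene span from 5′ to 3′ (x axis), for the 36 replication genes with at least 5 sites (bars) and all protein-coding genes with at least 5 sites (line). The bars run from 8.56% in the first part to 12.3% in the last, the line from 5.00% to 13.8%.

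Neighbouring sites were close. The median distance between neighbours was 145 nt in the members and 157 nt in all protein-coding genes, and 41.6% and 39.7% of the distances were at most 60 nt. When neighbours up to 60 nt apart were joined, the members had 502 clusters, of which 298 were single sites. The cluster with the most sites was in TIMELESS, where 6 sites had their centres between 56423490 and 56423544 on chromosome 12, a width of 54 nt. CDC45, MCM3 and POLE each had 1 cluster of 5 sites, and no other cluster held more than 4.

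Members carried the paired spacing that is seen across the list. There were 202 pairs of sites 25 to 45 nt apart and 57 pairs 46 to 66 nt apart, a ratio of 3.54 (95% Wilson-based interval 2.64 to 4.75, counting error only), beside 3.59 in all protein-coding genes. Pairs can share a site, so this interval may be too narrow. The spans of 25 to 45 and 46 to 66 nt were known from earlier results of these data. The ratio is thus a description and no test of the spacing. Of the 36 members with at least 5 sites 30 had more pairs in the nearer span, against a background of 78.9%. The share of members is thus close to the background.

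The members differed in how clearly they showed it. MCM4 and CDC6 each had 11 pairs at 25 to 45 nt and 0 at 46 to 66 nt, and WDHD1 had 9 and 0. CDC45 had 11 and 7, and POLE had 9 and 7, while POLA1, with nearly as many sites, had 14 and 3, the most pairs in the nearer span of any member. MCM10 and RFC3 were the 2 members with fewer pairs in the nearer span, each with 0 against 1.

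Paired footprints, clusters made of exactly 2 elements whose means lie 25 to 45 nt apart, numbered 96 in 33 members, with a median spacing of 35 nt. At least 1 was present in 31 of the 36 members with at least 5 sites, beside 80.5% of all such genes. POLA1 had 7, and POLE, RFC1, MCM6, ORC1 and CDC6 had 5 each. By share of clusters, CDC6 had 5 of 13 and CDC45 only 3 of 38. Upstream elements summed to 136 sites and downstream ones to 124, and 46 footprints had 1 site on each side.

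At longer range, pairs 140 to 180 nt apart numbered 98 and pairs 60 to 100 nt apart 53, a ratio of 1.85 beside 1.72 in all protein-coding genes. RFC4, MCM4 and ORC4 had 8 pairs each at the longer distance and 0, 1 and 0 at the shorter. CDC45 ran the other way, with 9 and 16. The sum over members therefore resembled the list as a whole. Among single members 21 had more pairs at the longer distance and 8 had fewer. CDC45, the member with the most sites, was among the latter. Over all protein-coding genes 1945 had more and 857 had fewer, so the count of members shows nothing particular to them.

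**Figure D5:**
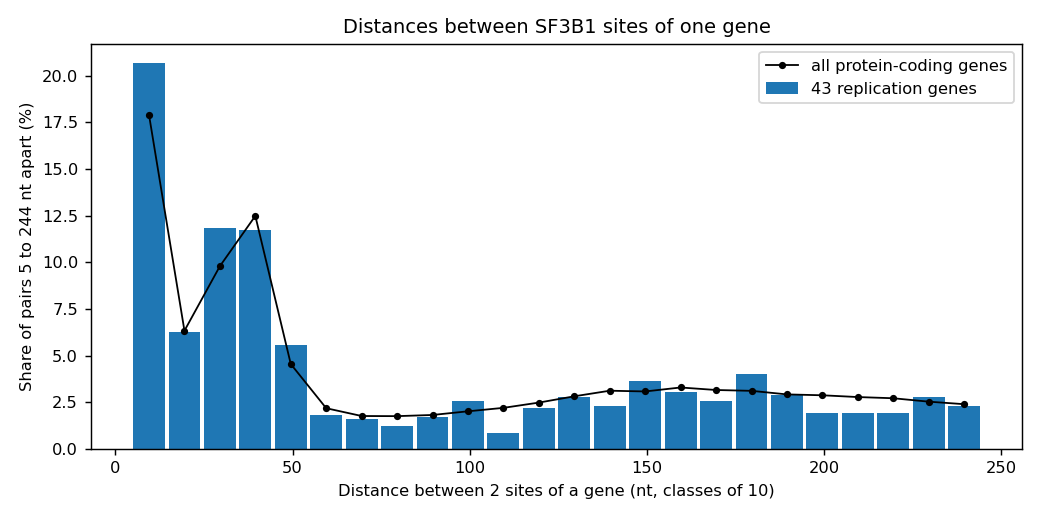
Share of the plotted pairs of sites (y axis, %) by the distance between them in nt, in classes of 10 nt (x axis), for the 43 replication genes (bars) and all protein-coding genes (line). Both are high at 5 to 14 nt (20.7% and 17.9%), fall to 6.29% and 6.33% at 15 to 24 nt, and rise again at 25 to 44 nt.

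Other genes of the replication pathway were counted in the same way. Of 46 further genes 42 had a site and 25 had at least 10, with a median of 10.5 sites per gene and of 0.457 sites per kb among those with a site. RIF1, which controls origin timing, had 97 sites, the topoisomerases TOP2B and TOP2A had 73 and 71, the histone chaperone NASP had 41 and ATAD5, which unloads PCNA, had 40. The smallest polymerase subunits POLD4 and POLE4, the helicase MCM8 and CHTF8, a part of an alternative clamp loader, had 0. POLD2 had 9 sites and POLE3 had 7, and all 14 kinases and regulators of origin firing had at least 1. At least 10 sites were found in 11 of these 14. Of the 7 remaining subunits, POLD2, POLD4, POLE3, POLE4 and MCM8 among them, 4 had a site and 0 had at least 10.

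Genes of repair and of chromosome structure were counted for comparison. In 20 BRCA and Fanconi repair genes 18 had a site, with a median of 11 sites per gene and 0.186 per kb among those with a site. In 21 cohesin and condensin genes all 21 had a site, with medians of 31 sites and 0.469 per kb. The share of genes with a site in the replication machinery, 41 of 43, lay between these lists, and no difference between the lists was tested.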

How the data were processed

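The authors deposited 1 list of merged SF3B1 sites in BED form, which the labels attach to 3 SF3B1 wt/wt samples. Each is 5 nt wide and, per the file headers, was kept where all replicates of one or the other condition shared it. The deposited score was 0 in every row and was not used. The submitters' processing notes name FastQC, STAR, UMI-tools and bedtools, and the builds GRCh38.p10 and GRCh38.p12, without roles; the site caller is not given in the sources used here.

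Positions were made 1-based. Gene spans came from RefSeq (GRCh38.p14) and are the outermost limits of each gene; exons were not used here, so the planned count near 3′ splice sites was not made. Strand came from RefSeq start windows or, without an entry, from the strand with more sites; 2991 protein-coding genes without either count as having 0 sites. A site overlapping several genes was counted in each on its strand. The list holds no replicate values, so counts, medians and shares are descriptions. Wilson intervals cover counting error only. They treat sites or pairs as independent, although pairs can share a site and sites cluster within genes, so they may be too narrow. Members and gene lists were chosen with earlier results of these data known. All 43 members are named; those with full values are the 10 with most sites, the 5 densest and the extremes of each role. From the further replication genes the 5 with most sites and those with 0 are named, and POLD2, POLE3 and marker genes with 0 sites were named after their values were seen. Counting was tested on simulated sites in 200 genes, and all 200 were recovered. The tools were SciPy 1.17.1, pandas 2.3.3 and NumPy 2.4.6 under Python 3.11.15.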

Additional observations from a re-analysis of the deposited data

How the results depend on the processing

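Of 40 recalculations of 7 summary results 39 stayed within the set limits (1.5 times for counts and medians, the main value's interval for ratios), as did 172 recounts of single members. These include settings that could change little. Taking the 5′ end of each site moves all sites of a gene equally, so spacing could not change. Leaving out sites in another protein-coding gene removed no member site. Both settings left every value unchanged and say little about stability. Keeping 1 site per region number gave 747 sites and a median of 17 per gene, and merging touching sites gave 799 and 19. The ratio of pairs 25 to 45 nt to pairs 46 to 66 nt apart ran from 3.18 (minus strand genes) to 4.33 (plus strand genes). Sites in the last over those in the first 10% ran from 1.02 (20% at each end) to 1.74 (members of 10 to 100 kb), the latter outside the interval of the main value. It was 1.67 without POLA1, 1.54 without CDC45 and POLA1 and 1.39 with the innermost RefSeq start; these 3 and the length limit were chosen after seeing the data, and the cause was not tested. Alternatives based on the score or on exons were not run, since every score is 0 and exons were not used here. No paired analysis was possible because replicates were merged before deposit, and for the same reason no replicate could be left out. Read depth is unknown, so the 0 counts of FEN1 and POLA2 have no detection limit.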
